A study of Homo sapiens with 12 samples.

Results

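The genes described here encode the forkhead (FOX), SRY-box (SOX), T-box (TBX), GATA and Krüppel-like (KLF) transcription factors. They were taken by symbol alone, as a family prefix with its subfamily letter and number. No expression value entered the rule, but earlier results of these data were known when it was set. The count table held 70 of them among 14438 genes: 30 FOX, 13 SOX, 8 TBX, 4 GATA and 15 KLF genes. Of these, 69 were among the 14263 genes tested.

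RNA was sequenced from HEK293T, a human embryonic kidney cell line, in 4 stable lines with 3 replicates each, with a vector for EZH2 WT, for the single mutants Y641F and A677G, or for the double mutant H689A/F667I. Y641F and A677G are the gain-of-function (GOF) mutants of the histone methyltransferase EZH2, and H689A/F667I is the loss-of-function (LOF) mutant. All lines were made by lentiviral infection and blasticidin selection, which the study's methods describe as giving monoclonal populations, so a line may stand for 1 clone, and all keep the EZH2 genes of the host cells. The control is therefore a line with added wild-type EZH2, and uninfected or empty-vector cells were not analysed here.

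EZH2 is the catalytic subunit of polycomb repressive complex 2, which trimethylates lysine 27 of histone H3 (H3K27me3), a mark known for covering the promoters of developmental transcription factor genes while they are silent. FOX factors bind DNA through a winged helix, SOX factors bend it with a high-mobility-group box, TBX factors use the T-box domain, and GATA and KLF factors use zinc fingers. Members of these families set lineage choices in the early kidney, nervous system, heart and blood, and several are shared between tissues. The comparisons ask which of these genes differed between each mutant and EZH2 WT, between the GOF mutants and the LOF mutant, and between the GOF mutants themselves.

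The 12 libraries held 32137700 to 44562413 counts each, of which the members took 0.211% to 0.233%, and values below are CPM, counts scaled to a common library size by trimmed means (TMM). The common biological coefficient of variation over all genes was 0.0471. On the principal component that held 33.7% of the variance, EZH2 Y641F replicate 1 lay at 5.6 and the other 5 GOF libraries at 15.2 to 17.7, while the EZH2 WT and LOF libraries lay between -16.3 and -13.8. EZH2 RNA, which sums the host and added genes, averaged 158 CPM in EZH2 WT, 218 in Y641F, 173 in A677G and 208 in LOF. Of 9 markers fixed for HEK293T, 7 were tested, and their summed level was 672 to 685 CPM in EZH2 WT, 555 to 601 in Y641F, 532 to 547 in A677G and 619 to 642 in LOF, with neurofilament genes NEFL and NEFM falling in all mutants, CDH2 rising in Y641F (0.15) and A677G (0.18), and INA, LIN28B, KRT8 and KRT18 not passing the test against EZH2 WT. PAX2, another of the 9, was listed at 0 in the A677G replicates. Whether these shifts bear on the members was not tested, and in bulk RNA fewer cells of a kind and less RNA per cell cannot be told apart.

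On a per-length scale (CPM per kilobase of exons, mean of all libraries), levels differed widely within each family. FOXC1, a forkhead factor of mesenchyme and kidney development, was the highest FOX gene at 53.8. SOX4, a SOXC factor of progenitor cells, led the SOX genes at 50.8, and TBX3, a T-box repressor of limb and heart development, led its family at 12.6. GATA6, an endoderm and heart factor, stood at 15.0 and KLF9, a repressor induced by hormones, at 15.3. The low end was TBX15 at 0.0941 and KLF8 at 0.155. By CPM, 41 of the 69 tested members averaged at least 10, and 11 of those changed in at least 1 comparison, against 5 of the 28 members under 10. The matching shares over all genes are not given here, so the split cannot be read as particular to the members.

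**Figure D1:**
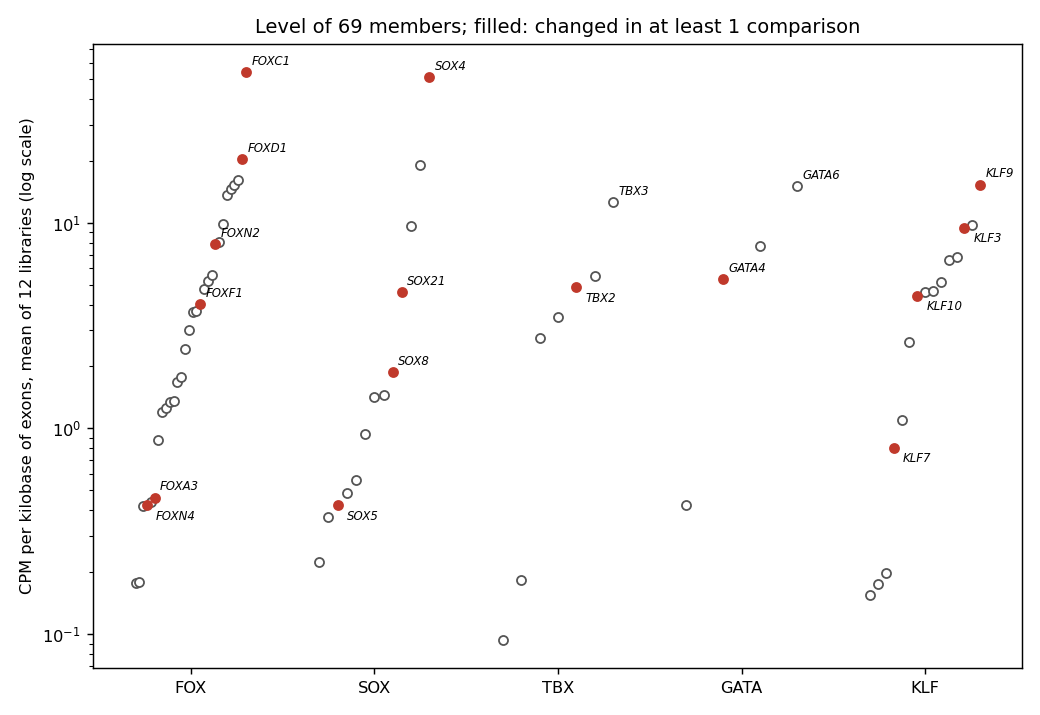
Mean level of the 69 tested members by family, as CPM per kilobase of exons on a log scale over 12 libraries, 1 point per gene. Filled points, with names, changed in at least 1 of 5 comparisons, and the highest gene of each family is named too. FOXC1 at 53.8 and SOX4 at 50.8 stand above all others.

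Against EZH2 WT, 7 members (10.1%) changed in Y641F, 6 lower and 1 higher, at a p under 0.05 in edgeR's quasi-likelihood test, adjusted by Benjamini-Hochberg across the whole table. The share over all genes tested was 7.68%, with 5.59% lower and 2.09% higher. In A677G 8 members (11.6%) changed, 5 lower and 3 higher, beside 8.55% of all genes, with 6.48% lower and 2.07% higher. Both shares of the members lay near those of all genes. FOXD1, KLF7, SOX21 and SOX5 fell and SOX4 rose in both GOF lines, which share their EZH2 WT controls, and 10 members changed in either line. The shares of all genes that changed in both lines or in either line are not given here. The median log2 fold change of the 69 members was -0.03 in Y641F and -0.04 in A677G, beside 0.00 over all genes. Once each library's trend with the GC content of genes was removed, 4 members were lower and 2 higher in Y641F, and 5 lower and 6 higher in A677G, and with upper-quartile scaling 7 were lower and 2 higher in A677G. Over all genes the GC correction took the lower share of calls from 72.8% to 55.1% in Y641F and from 75.8% to 50.1% in A677G. The Y641F count was 3 without EZH2 WT replicate 1 and 4 without EZH2 WT replicate 2, EZH2 WT replicate 3 or Y641F replicate 3, and the A677G count was 5 without A677G replicate 2.

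In the LOF line no member passed the same edgeR test, beside 0.301% of all genes (0.161% lower and 0.14% higher). At an unadjusted p under 0.05 there were 12 members (17.4%), 9 lower and 3 higher, beside 1184 of all genes (8.3%), 585 lower and 599 higher. DESeq2 also called none, while edgeR's exact test called 3, FOXD1 among them. With only the EZH2 WT and LOF libraries in the fit, FOXD1 alone was called. Calls over all genes under these alternatives are not given here.

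**Figure D2:**
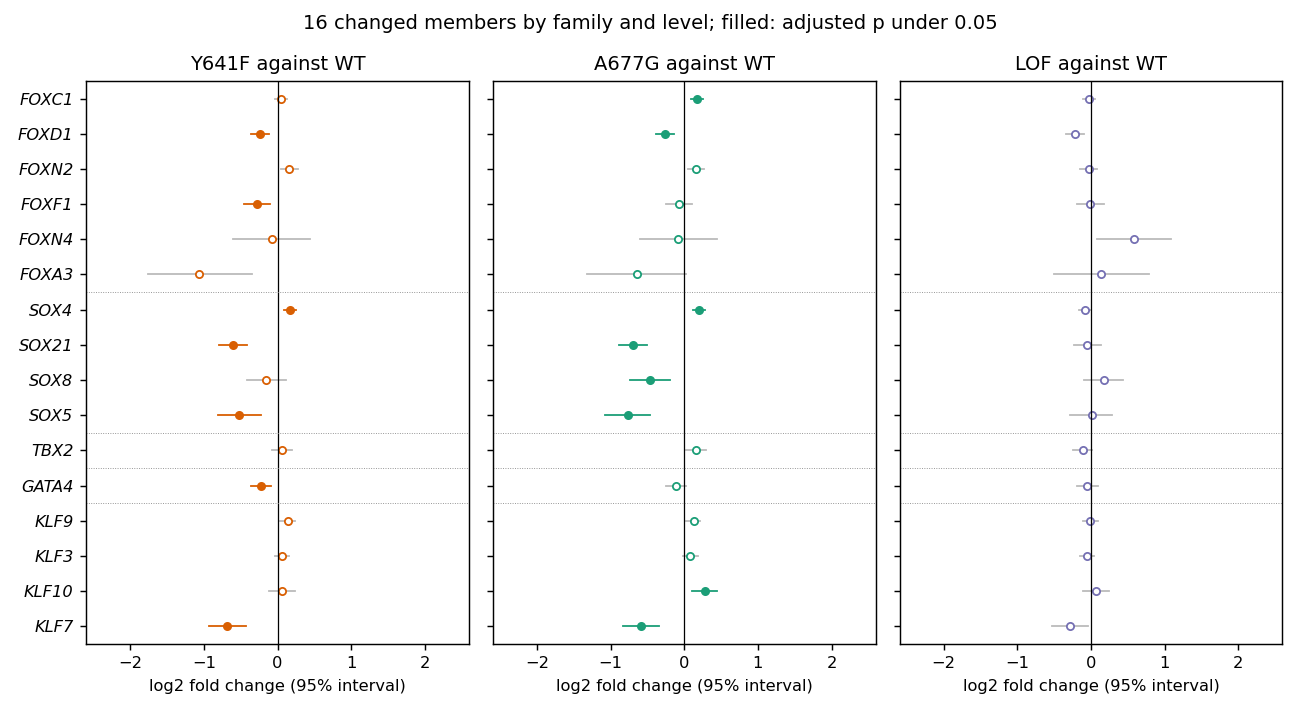
Log2 fold change with its 95% interval against EZH2 WT, in Y641F, A677G and LOF, for the 16 members that changed in at least 1 of 5 comparisons, ordered by family and by mean level within it. Filled points passed an adjusted p of 0.05, which 7 members did in Y641F, 8 in A677G and 0 in LOF.

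SOX21, a SOXB2 repressor that opposes SOXB1 factors such as SOX2 in neural progenitors, fell in both GOF lines. Its 3 EZH2 WT replicates stood at 15.9, 17.7 and 16.3 CPM and the LOF replicates at 16.4, 15.8 and 16.1. The Y641F replicates stood at 12.9, 10.2 and 9.67 CPM and the A677G replicates at 10.4, 10.7 and 9.57. All GOF replicates lay below every EZH2 WT and LOF replicate. The log2 fold change was -0.61 ± 0.0939 (SE, n = 3 per line; adjusted p = 1.97e-05, edgeR's quasi-likelihood test) in Y641F and -0.70 ± 0.0945 (adjusted p = 1.84e-06, same edgeR test) in A677G, so that expression fell by 34.3% and 38.4%. In LOF it was -0.05, with a 95% interval of -0.23 to 0.14. Both GOF calls held in all 6 fits with 1 library left out.

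SOX21 (ENSG00000125285.6) lies on the minus strand of chromosome 13, at 94709622 to 94712545 of GRCh38, inside the span of SOX21-AS1, a long non-coding RNA on the plus strand at 94703454 to 94803430. SOX21-AS1 was the only 1 of 9 RNAs named for a member, antisense RNAs and the like, that changed. That is 11.1% in Y641F and in A677G against EZH2 WT, beside 7.68% and 8.55% of all genes. Its replicates stood at 15.2, 13.8 and 14.1 CPM in EZH2 WT, 9.77, 8.64 and 8.11 in Y641F, 10.7, 9.24 and 8.78 in A677G, and 14.4, 14.7 and 16 in LOF. The GOF replicates again lay below all others, with a log2 fold change of -0.70 in Y641F (adjusted p = 2.85e-06, edgeR's quasi-likelihood test), -0.58 in A677G (adjusted p = 4.79e-05, same edgeR test) and 0.07 in LOF (adjusted p = 0.896, same edgeR test). The library kit marked strand, but whether the counting used it is not given in the sources used here, so reads in the shared stretch may be split either way.

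SOX5, a long SOXD factor that works in cartilage and neurons without an activation domain of its own, fell too. It stood at 5.85, 5.31 and 6.34 CPM in EZH2 WT, 4.54, 3.94 and 3.71 in Y641F, 4.08, 3 and 3.13 in A677G, and 5.93, 5.22 and 6.42 in LOF. No GOF replicate reached the lowest EZH2 WT or LOF value. Its log2 fold change was -0.77 ± 0.148 (SE, n = 3 per line; adjusted p = 0.000395, edgeR's quasi-likelihood test) in A677G and -0.52 ± 0.145 (adjusted p = 0.0195, same edgeR test) in Y641F. The Y641F call was lost without EZH2 WT replicate 1 or 3 or without Y641F replicate 2 or 3, where its log2 fold change was -0.52 to -0.45 and its adjusted p 0.0602 to 0.0976 (same edgeR test). The other SOXD members were also negative in both lines without passing the test, SOX6 at -0.18 and -0.26 and SOX13 at -0.10 and -0.25.

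SOX4 rose in both GOF lines by a small margin. It stood at 232, 239 and 234 CPM in EZH2 WT, 285, 256 and 250 in Y641F, 265, 267 and 275 in A677G, and 220, 223 and 222 in LOF. Every GOF replicate lay above every EZH2 WT and LOF replicate. The increase was 12.3% in Y641F (log2 fold change 0.17, adjusted p = 0.00471, edgeR's quasi-likelihood test) and 14.6% in A677G (log2 fold change 0.20, adjusted p = 0.000686, same edgeR test). Without Y641F replicate 1, the library that lay apart on the first component, the Y641F value was 0.11 with an adjusted p of 0.0508 (same edgeR test). SOX12, the other SOXC gene, stood at -0.02 in Y641F and 0.06 in A677G, with 95% intervals of -0.11 to 0.08 and -0.03 to 0.16.

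The bases just before the start of these 3 SOX genes are shown because SOX21 and SOX5 fell and SOX4 rose in the same libraries. They are RefSeq windows on GRCh38.p14, read 5′ to 3′ on the gene's strand and cut where the annotated gene begins, with each CpG in capitals. SOX21 (chr13:94712546-94712795, minus strand) has 11 CpG in 250 bases, SOX5 (chr12:24562545-24562741, minus strand) has 18 in 197 bases and SOX4 (chr6:21593501-21593750, plus strand) has 8 in 250 bases.
SOX21: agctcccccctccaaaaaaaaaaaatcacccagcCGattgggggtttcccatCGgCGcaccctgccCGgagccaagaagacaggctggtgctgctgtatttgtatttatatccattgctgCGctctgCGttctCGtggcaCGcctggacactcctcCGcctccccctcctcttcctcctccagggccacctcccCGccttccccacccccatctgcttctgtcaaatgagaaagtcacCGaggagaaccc
SOX5: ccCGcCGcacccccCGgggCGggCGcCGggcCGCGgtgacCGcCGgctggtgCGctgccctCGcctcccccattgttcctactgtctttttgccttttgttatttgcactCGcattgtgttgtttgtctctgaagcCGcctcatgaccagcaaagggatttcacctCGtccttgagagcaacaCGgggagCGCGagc
SOX4: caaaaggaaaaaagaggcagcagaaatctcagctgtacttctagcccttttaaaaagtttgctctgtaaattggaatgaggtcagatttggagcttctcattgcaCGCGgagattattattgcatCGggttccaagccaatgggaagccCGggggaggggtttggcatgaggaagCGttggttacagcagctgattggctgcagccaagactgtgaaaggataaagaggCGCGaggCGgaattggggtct
The SOX5 stretch holds 1 GC box (GGGCGG on either strand), and these letters are in neither of the others.

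Among RefSeq windows from 250 bases before to 50 bases after the first listed start, 53 of the 70 members had an entry, 11 of them with more than 1 start listed. Their median was 29.0 CpG, beside 26.0 over the 10435 tested genes with an entry, and single members ran from 1 to 56 CpG. On either strand, GGGCGG, the GC box that SP and KLF factors bind, was in 69.8% of member windows and 70.6% of all. CCACCC, a KLF-type box, was in 34.0% and 37.8%, and TGTTTAC, a forkhead motif, in 3.77% and 2.22%. The SOX core ACAAT was in 22.6% and 16.4%, and the T-box motif AGGTGTGA in 1.89% (1 member) and 0.642%. The letters AGATAA, which factors of the GATA family bind, were in 11.3% and 4.92%. TATAAA was in 5.66% and 5.27%. These motifs do not contain one another, and a match describes letters in the window and no more.

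SOX8, a SOXE factor of neural crest and testis, fell in A677G by 27.6%. It stood at 9.17, 8.21 and 9.41 CPM in EZH2 WT and at 5.09, 5.92 and 8.5 in A677G, so that the third A677G replicate lay within the EZH2 WT range. Y641F replicates stood at 9.22, 6.78 and 8.04 CPM and LOF replicates at 9.77, 9.68 and 10.8. The log2 fold change in A677G was -0.47 (adjusted p = 0.0229, edgeR's quasi-likelihood test) and in Y641F -0.15 (adjusted p = 0.592, same edgeR test), and the difference between the GOF lines, 0.31, did not pass (adjusted p = 0.66, same edgeR test). The A677G call was lost without EZH2 WT replicate 1 or 3 or A677G replicate 1 or 2, at log2 fold changes of -0.45 to -0.31. SOX9, the other SOXE gene measured, stood at -0.04 and 0.00. The SOXB1 gene SOX2, a pluripotency and neural stem cell factor, averaged 23.6, 23.7, 24.4 and 24.8 CPM in EZH2 WT, Y641F, A677G and LOF, with no comparison past the test.

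**Figure D3:**
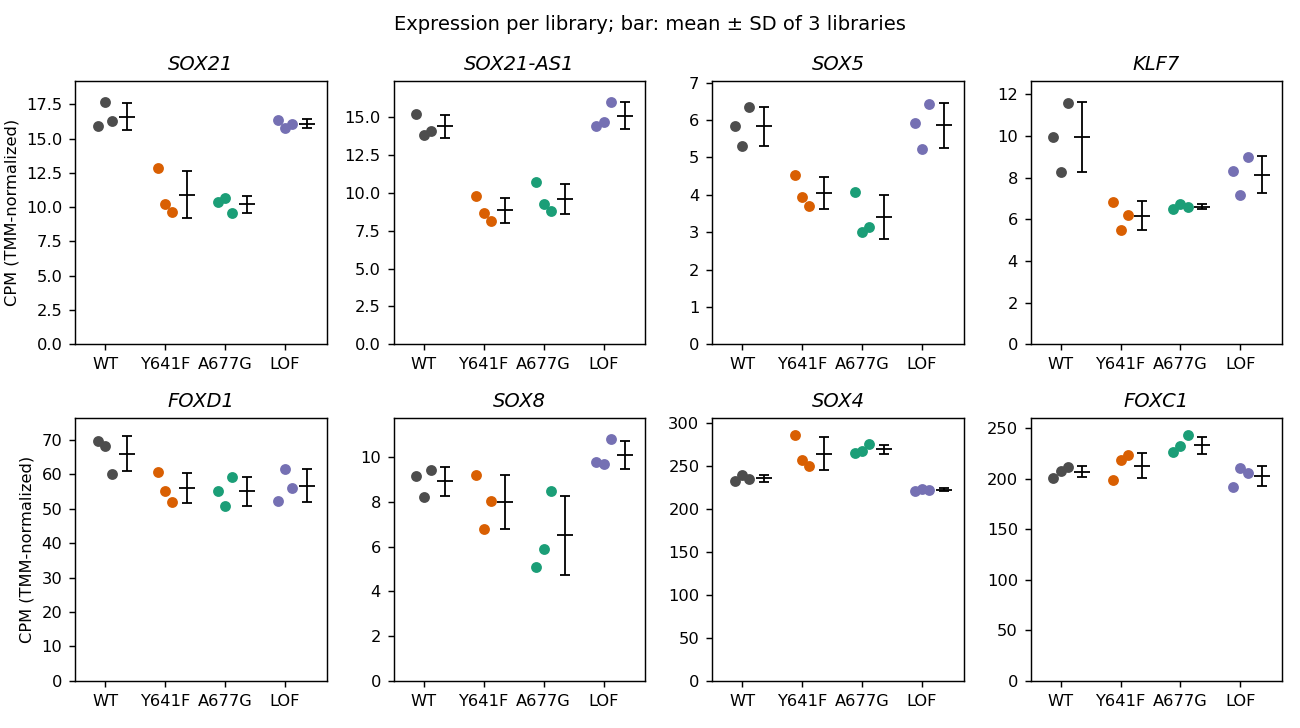
TMM-normalized CPM in each of 12 libraries for SOX21, its antisense RNA SOX21-AS1, SOX5, KLF7, FOXD1, SOX8, SOX4 and FOXC1, with axes from 0 and the mean ± SD of 3 replicates beside the points. The Y641F and A677G points of SOX21, SOX21-AS1, SOX5 and KLF7 lie below all WT and LOF points, and those of SOX4 lie above them.

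KLF7, an activating KLF of neuron and fat cell development, fell by 37.7% in Y641F and by 33.4% in A677G. Its replicates stood at 9.96, 8.28 and 11.6 CPM in EZH2 WT, 6.85, 5.49 and 6.2 in Y641F, 6.48, 6.73 and 6.61 in A677G, and 8.31, 7.18 and 8.97 in LOF. The GOF replicates lay below all others, and the LOF replicates overlapped EZH2 WT. The log2 fold change was -0.68 ± 0.122 (SE, n = 3 per line; adjusted p = 0.000172, edgeR's quasi-likelihood test) in Y641F, -0.59 ± 0.122 (adjusted p = 0.000979, same edgeR test) in A677G and -0.29 (adjusted p = 0.478, same edgeR test) in LOF. Both GOF calls held with any 1 library left out.

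KLF10, a KLF induced by transforming growth factor beta, rose by 21.3% in A677G, from 17.4, 15.7 and 13.8 CPM to 18, 19 and 20. The lowest A677G value lay just above the highest EZH2 WT value. The log2 fold change of 0.28 (adjusted p = 0.0352, edgeR's quasi-likelihood test) missed the threshold without EZH2 WT replicate 2 or 3 or A677G replicate 2 or 3, at 0.20 to 0.28, and under upper-quartile scaling or library totals alone. The Y641F value was 0.06, and the difference between the GOF lines did not pass (adjusted p = 0.604, same edgeR test). The other 13 KLF genes passed in neither GOF line against EZH2 WT. KLF15 and KLF16 came closest in A677G at -0.30 (adjusted p = 0.0631, same edgeR test) and -0.19 (adjusted p = 0.0775, same edgeR test).

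FOXD1, a forkhead factor of the kidney stroma, fell by 15.2% in Y641F and 16.6% in A677G. It stood at 69.6, 68.1 and 60.1 CPM in EZH2 WT, 60.7, 55.1 and 52.1 in Y641F, 55.3, 50.7 and 59.2 in A677G, and 52.2, 61.7 and 56.1 in LOF. A677G lay wholly below EZH2 WT, while 1 replicate each of Y641F and LOF overlapped it. The log2 fold change was -0.24 in Y641F (adjusted p = 0.0109, edgeR's quasi-likelihood test), -0.26 in A677G (adjusted p = 0.004, same edgeR test) and -0.22 in LOF (adjusted p = 0.168, same edgeR test). Between the GOF mean and LOF it was -0.03, with a 95% interval of -0.14 to 0.08. The Y641F call was lost without EZH2 WT replicate 1 or 2 or Y641F replicate 3 (log2 fold change -0.21 to -0.19), and the A677G call without A677G replicate 2 (-0.21, adjusted p = 0.0633, same edgeR test).

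FOXC1 rose by 12.9% in A677G, from 201, 208 and 212 CPM to 226, 232 and 243, with no overlap. Its log2 fold change was 0.17 (adjusted p = 0.00477, edgeR's quasi-likelihood test), and 0.14 to 0.15 without EZH2 WT replicate 1 or A677G replicate 3, where it no longer passed. In Y641F it stood at 199, 218 and 223 CPM, a log2 fold change of 0.05. FOXF1, a mesenchymal factor of lung and gut, fell by 17.5% in Y641F, from 15.8, 14.3 and 14.7 CPM to 13.1, 11.7 and 12.2, with no overlap. That call (log2 fold change -0.28, adjusted p = 0.0467, same edgeR test) was lost in 5 of 6 fits with 1 library left out, all but the one without Y641F replicate 1, at -0.31 to -0.23. It was also lost by edgeR's exact test, by library totals, with only the compared groups and after the GC correction, with adjusted p of 0.053 to 0.0807.

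GATA4, a zinc finger factor of heart and gonad, fell in Y641F by 14.5%, from 24.7, 26.4 and 24.8 CPM to 22.3, 22 and 20.6, with no overlap. This was a log2 fold change of -0.23 (adjusted p = 0.0344, edgeR's quasi-likelihood test), against -0.11 in A677G (adjusted p = 0.388, same edgeR test) and -0.05 in LOF. The Y641F call was lost in 5 of 6 fits with 1 library left out, all but the one without Y641F replicate 1, at -0.24 to -0.19, and by library totals, with only the compared groups and after the GC correction. GATA6 averaged 57.4, 56.3, 56.6 and 57.9 CPM in EZH2 WT, Y641F, A677G and LOF, and GATA2, a blood stem cell factor, 38.9, 37.7, 36.6 and 38.4. Their 95% intervals against EZH2 WT lay between -0.20 and 0.11 in all 3 mutants. GATA5, at 0.936 to 1.46 CPM on average, had a LOF value of 0.65 with an interval of 0.08 to 1.21 (adjusted p = 0.481, same edgeR test).

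No T-box gene passed against EZH2 WT. TBX3 averaged 75.6, 74.8, 76.4 and 74.3 CPM in the lines in the same order, with log2 fold changes of -0.01, 0.02 and -0.02 and intervals between -0.11 and 0.10. TBX6, a factor of paraxial mesoderm, was not tested: it had 17, 12 and 12 counts in EZH2 WT, 23, 14 and 17 in Y641F and 16, 10 and 20 in LOF, and was listed at 0 in all 3 A677G replicates. It was 1 of 175 genes at 0 in all replicates of A677G or LOF, while no gene was at 0 in 2 of the 3 A677G replicates, and no step that set them is given in the sources used here. With such genes kept, the same edgeR test called TBX6 between A677G and EZH2 WT (adjusted p = 3.26e-05). The listed 0 values fixed that outcome, so it is no measure of a change in TBX6.

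The GOF mean differed from LOF in 12 members (17.4%), 6 lower and 6 higher, in edgeR's quasi-likelihood test, beside 12.6% of all genes, with 8.75% lower and 3.81% higher. SOX21, SOX5, SOX8, KLF7, FOXA3 and FOXN4 were lower in the GOF mean, and SOX4, TBX2, FOXN2, KLF9, FOXC1 and KLF3 were higher. The count was 6 without LOF replicate 3. Over all genes the GC correction took the lower share of calls from 69.6% to 43.1%, and over the members the split became 7 lower and 9 higher. SOX4 differed by 0.27 (95% interval 0.20 to 0.34, adjusted p = 5.51e-07, same edgeR test), SOX21 by -0.61 (-0.77 to -0.44, adjusted p = 7.53e-07) and SOX5 by -0.65 (-0.90 to -0.40, adjusted p = 0.000256). SOX8 differed by -0.48 (-0.71 to -0.25, adjusted p = 0.00255, same edgeR test), and the calls of these 4 SOX genes held in all 9 fits with 1 library left out. Against EZH2 WT, SOX8 passed in A677G alone. The LOF replicates lay above every EZH2 WT replicate for SOX8 and below every one for SOX4, though neither gene passed in LOF against EZH2 WT. KLF7 differed by -0.35 (adjusted p = 0.0243, same edgeR test), a call lost without Y641F replicate 2 or LOF replicate 1 or 3, at -0.33 to -0.27.

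FOXN2, a forkhead factor of broad expression, stood at 47.4, 43.6 and 47.2 CPM in Y641F and 47.5, 45.3 and 44.9 in A677G, above every EZH2 WT replicate (38.7, 42.2 and 42.5) and LOF replicate (41.9, 41 and 37.5). It differed from LOF by 0.19 (adjusted p = 0.00426, edgeR's quasi-likelihood test) and from EZH2 WT by 0.16 in each GOF line (adjusted p = 0.0608 and 0.0674, same edgeR test). KLF9 likewise stood at 78.7 to 91.6 CPM in the GOF lines, above 73.5 to 78.5 in EZH2 WT and 71 to 78.2 in LOF, and differed from LOF by 0.15 (adjusted p = 0.0176, same edgeR test). Both calls were lost without LOF replicate 3, at 0.15 for FOXN2 and 0.11 for KLF9. Together with SOX21, SOX5, KLF7 and SOX4, these made 6 members whose GOF replicates all lay outside the values of both other lines. The share of all genes with such a gap was not counted, so the number cannot be read as particular to the members.

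TBX2, a T-box repressor of senescence genes, stood at 28.7 to 33.3 CPM in the GOF lines and 26.5, 26.1 and 27.8 in LOF, a difference of 0.22 (adjusted p = 0.00594, edgeR's quasi-likelihood test), which just missed without LOF replicate 2 (0.20, adjusted p = 0.0513, same edgeR test). FOXC1 differed by 0.14 (adjusted p = 0.00972, same edgeR test), and by 0.10 without LOF replicate 1 (adjusted p = 0.147, same edgeR test). KLF3, a repressor that recruits CtBP, differed by 0.13 (adjusted p = 0.0426, same edgeR test) and was lost in 6 of 9 fits with 1 library left out (without Y641F replicate 3, A677G replicate 1 or 2, or any LOF replicate), at 0.11 to 0.15, and under upper-quartile scaling. The low forkhead genes FOXA3, a liver factor, and FOXN4, a retinal factor, averaged 1.34 and 2.04 CPM in LOF. Against EZH2 WT, where it averaged 1.22, FOXA3 stood at -1.06 in Y641F (adjusted p = 0.0533, same edgeR test). In A677G it stood at -0.64 (adjusted p = 0.278, same edgeR test), so neither passed. FOXA3 averaged 0.577 in Y641F and 0.782 in A677G (-0.99 against LOF, adjusted p = 0.0147, same edgeR test). That call was lost without LOF replicate 1 or 3, at -0.98 to -0.84. FOXN4 averaged 1.28 and 1.29 in the GOF lines and 1.36 in EZH2 WT (-0.67, adjusted p = 0.0303, same edgeR test) and was lost in 5 of 9 such fits (without Y641F replicate 3, A677G replicate 1 or 2, or LOF replicate 2 or 3), at -0.66 to -0.52.

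**Figure D4:**
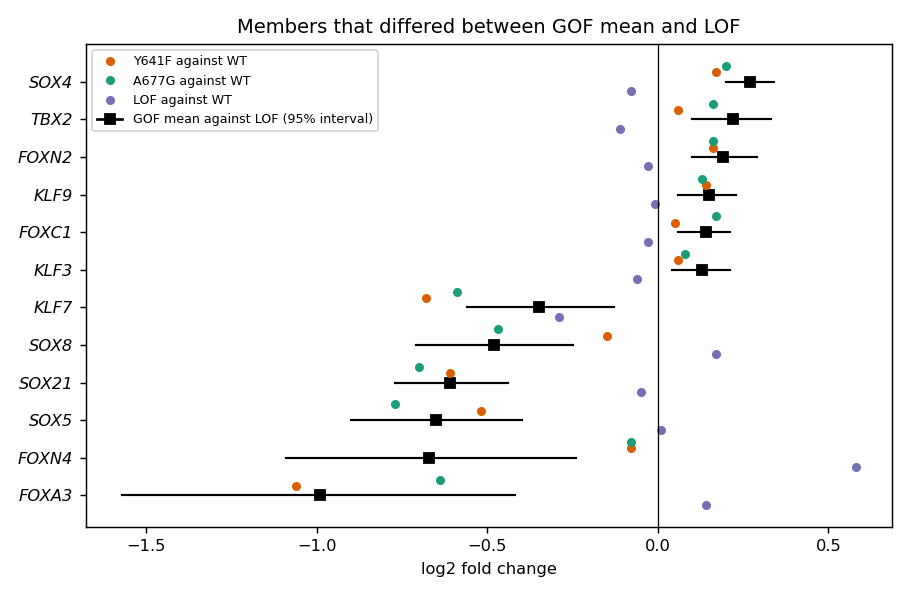
The 12 members that differed between the GOF mean and LOF, as log2 fold change with its 95% interval (black squares), beside their log2 fold changes against EZH2 WT in each mutant (coloured points). FOXN4 is the gene whose GOF points lie near 0 and whose LOF point lies at 0.58. KLF7 and SOX21 have all 3 mutants below 0, with LOF at -0.29 and -0.05.

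Between Y641F and A677G no member passed edgeR's quasi-likelihood test, beside 0.0841% of all genes (0.014% lower and 0.0701% higher). At an unadjusted p under 0.05 there were 5 members (7.25%), 4 lower and 1 higher in Y641F, beside 985 of all genes (6.91%), 458 lower and 527 higher, and the exact test and DESeq2 called none. Among the genes called in at least 1 GOF line, the largest differences were 0.31 for SOX8 and 0.25 for SOX5 (95% interval -0.06 to 0.56), both higher in Y641F.

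No comparison called the remaining 53 members. Of the members with a mean of at least 10 CPM that were not called in the comparison at hand, the 95% interval against EZH2 WT lay within 0.5 on the log2 scale in 36 of 36 in Y641F, 35 of 36 in A677G and 41 of 41 in LOF. Under 10 CPM this held for 6 of 26, 3 of 25 and 8 of 28. FOXK2, a forkhead factor of metabolism and chromatin, averaged 99.1, 97.2, 99.4 and 96 CPM in EZH2 WT, Y641F, A677G and LOF, with log2 fold changes of -0.03, 0.00 and -0.05 and intervals between -0.14 and 0.10. SOX3 and SOX15, under 1 CPM, show the other end. SOX3 stood at 0.68 in Y641F, with an interval that spans 0, 0.97 (0.17 to 1.77) in A677G and 1.08 (0.28 to 1.88) in LOF, and SOX15 at 0.89 (0.22 to 1.56), 0.54 (-0.15 to 1.23) and 0.39 (-0.32 to 1.10), and none passed edgeR's quasi-likelihood test. FOXO3 and FOXD4 have near-identical copies in the genome and SOX7 overlaps another gene on the same strand, so their counts are less certain.

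Genes that act with these factors were read from lists. The FOXO factors, which insulin signalling holds in the cytoplasm, had 0 of 4 members past the test in any comparison. Of 11 FOXO target genes, 1 rose and 1 fell in Y641F, 3 rose in A677G and 3 rose and 1 fell in the GOF mean against LOF. These were 18.2%, 27.3% and 36.4% of the list, beside 7.68%, 8.55% and 12.6% of all genes. The list is short and was chosen with earlier results known, so these shares cannot be read as particular to it. CCNG2, a cyclin that slows the cell cycle, rose in all 3 (0.31, 0.26 and 0.23), and IRS2 fell in Y641F (-0.43). The stress genes SESN1 and SESN3 rose in A677G (0.25 and 0.15) and in the GOF mean against LOF (0.19 and 0.17), where PDK4 fell (-0.83). Of 11 FOXM1 target genes of mitosis, CDC25B rose in Y641F (0.26) and CCNB2 in A677G (0.15), which is 9.09% of the list in each line. FOXM1 itself stood at -0.08 and 0.01.

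Of 7 GATA cofactors, TAL1 fell in A677G, from a mean of 2.25 to 1.12 CPM (adjusted p = 0.0201, edgeR's quasi-likelihood test), and LMO2 (-0.90), TAL1 (-0.79) and RUNX1 (-0.43) were lower in the GOF mean than in LOF, all at mean levels of 5.01 CPM or less in every line. Of 7 partner factors of SOX proteins, POU3F1 (-0.79) and POU3F3 (-0.20) fell in A677G and POU3F3 in LOF (-0.24), and against LOF the GOF mean was lower in POU3F1 (-0.69) and higher in POU2F1 (0.14) and POU3F2 (0.20). Of 7 SP factors, the family closest to KLF, 1 passed, SP4, at 0.21 in the GOF mean against LOF, and of 10 corepressors of KLF and FOX factors 1 passed there, TLE1, at 0.13. The T-box genes outside the symbol rule, 2 tested, did not pass in any comparison. Of the other marker lists, 1 of 3 fibroblast genes changed in Y641F (LUM, 0.90), and the 1 kidney tubule gene tested, LRP2, fell in A677G (-0.39) and in the GOF mean against LOF (-0.39). Over all genes, 7.68% changed in Y641F, 8.55% in A677G, 0.301% in LOF and 12.6% in the GOF mean against LOF. With lists this short, chosen with earlier results known, the counts cannot be read as particular to the lists.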

How the data were processed

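The authors prepared stranded mRNA libraries, trimmed reads with Trim Galore 0.6.5, aligned them to GRCh38 with STAR 2.7.9a and estimated abundance with Salmon 1.2.0, per the labels and the study's methods. The deposited values are raw counts per gene symbol, whole numbers without normalization. The step from Salmon estimates to these counts and the filter behind the 14438 genes are not given in the sources used here.

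Members and gene lists were chosen with earlier results of these data known, and 1 gene that the symbol pattern takes is not reported here. The tests ran under R 4.3.3 and used edgeR 4.0.16 (TMM, quasi-likelihood test on all 12 libraries, 1 coefficient per line), and p-values were adjusted by Benjamini-Hochberg over the 14263 genes tested, with 0.05 as the threshold. The 175 genes at 0 in every replicate of A677G or LOF were left out. A GC value could be given to 13920 tested genes. Of the 14438 symbols, 13272 matched a GENCODE name and 809 an older symbol, and 357 had no single match. The table of counts had 0 columns without a sample. Replicates are labelled as separate samples, and where nothing says they came from separate cultures the p-values measure the spread between these samples only. No 2 replicates agreed within sampling noise (chi-square per degree of freedom 3.33 to 14.9).

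Named in the text are members past the threshold in at least 1 comparison, the highest member per kilobase in each family, FOXK2 and GATA4, any member at 0 in a whole line, genes of the lists and RNAs named for a member past the threshold, and EZH2. Others were named after their values were seen: relatives of called genes, the lowest members and those close to a threshold. Alternatives were edgeR's exact test (the study's test), DESeq2 1.42.0, other scalings, other count filters (none, or a minimum of 10 counts per library), a fit to the compared groups alone, a replicate block, a GC correction, a minimum absolute log2 fold change of 1, and each library left out. The test code was checked on simulated counts.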

Additional observations from a re-analysis of the deposited data

How the results depend on the processing

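No member call reversed its sign under any alternative. Where a call also needed a log2 change of 1 or more in size, 0 members were called in Y641F, A677G or the GOF mean against LOF, since no called member reached that size. edgeR's exact test called 13 in A677G and 3 in LOF, and a fit with only the compared groups called 1 in LOF. With genes at 0 in a line kept, Y641F against A677G had 1 call, TBX6, by the construction of that setting. With 1 library left out, counts ran from 3 to 6 in Y641F, 5 to 7 in A677G and 6 to 15 in the GOF mean against LOF, and stayed at 0 in LOF and in Y641F against A677G. DESeq2 called 8, 8, 0, 12 and 0 members in Y641F, A677G, LOF, the GOF mean against LOF and Y641F against A677G. Same-numbered replicates shared only a number (correlations of their deviations between -0.0557 and 0.0501), and with it as a replicate block the counts were 8, 8, 0, 12 and 0. For all these alternatives except the GC correction, calls over all genes are not given here, so the counts describe the members alone. For calls that were lost, the cause was not tested. Uncalled members under 10 CPM had wider 95% intervals against EZH2 WT, with a median half-width of 0.5 to 0.523, beside 0.127 to 0.131 above.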
